A study of Homo sapiens and Mus musculus with 24 samples.

Results

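The regions described here are places in mouse fetal liver chromatin where BRG1, the HA signal for hemogen and H3K27ac were all found in wild-type (WT) livers, and where no BRG1 peak was listed in hemogen knockout (KO) livers. There were 2346 of them, out of 8223 acetylated hemogen-BRG1 regions and 13213 WT BRG1 regions in all. For each of the 3 WT signals, the peaks of both libraries were merged where they shared at least 1 bp, and a merged region was kept if it held a peak of each library. BRG1 regions that met both a hemogen and an H3K27ac region are named acetylated hemogen-BRG1 regions here. They are termed uncalled where they touched no peak in either KO library list or in the KO group list, and called where they touched any. The uncalled regions were thus chosen by the WT and KO BRG1 peak lists and the presence of hemogen and H3K27ac peaks, so BRG1 values at them are a description and test nothing.

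The livers came from mouse embryos at embryonic day 14.5, either WT or hemogen KO. Chromatin from WT livers was precipitated with antibodies against BRG1, HA and H3K27ac, and chromatin from KO livers with the BRG1 antibody, with 2 libraries for each of these 4 groups. Input libraries of both genotypes were part of the series. The samples titled hemogen were precipitated with an HA antibody from livers labelled WT, and neither the origin of the HA tag nor the knockout allele is stated in the labels. The series holds no H3K27ac or hemogen library from KO livers, and its 12 K562 samples were not analysed here. Separate embryos are not stated for the libraries of a group, so the spread between them may be technical. Whole fetal liver holds several cell types, and fewer cells of a type and less binding per cell cannot be told apart. The tissue could not be checked against marker genes, since no mouse annotation was used here, and regions are named by position, in coordinates of the deposited lists, whose genome build no source used here gives.

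BRG1 powers the BAF chromatin remodelling complexes: it burns ATP to slide and evict nucleosomes, which opens promoters and enhancers. H3K27ac, acetylation of a lysine in the tail of histone H3, marks active promoters and enhancers. Hemogen is made in blood-forming cells and acts in their nuclei, and the fetal liver is the main site of red cell production at this stage. The series asked how hemogen and BRG1 act together at erythroid promoters and enhancers.

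The WT BRG1 lists held 26329 and 21165 peaks on the autosomes and the X chromosome. The KO BRG1 lists held 3205 and 5592, and the KO group list 13938. Summit heights, backgrounds and read numbers were recovered from the deposited fold and p of each peak. The heights were whole multiples of 1 value per list (all of them, within 0.01), a value picked to give the most such multiples. Relative depth is an estimate from the lowest background that 5 or more peaks of a list had in common, set against its shortest peak. Relative to WT library 1, the estimated number of precipitated reads was 1.04 in WT library 2, 0.406 in KO library 1 and 0.342 in KO library 2. The estimated depth at which peaks were called, after the authors' scaling to the input, was 0.861, 0.259 and 0.262 in the same order. By this estimate, absence from a KO library list was absence at 0.259 or 0.262 of the calling depth of WT library 1. For the KO group list it was 0.517. Median backgrounds at acetylated hemogen-BRG1 regions listed in both KO libraries lay nearer to each other than these depths. They were 5.34 in WT library 1, 3.27 in KO library 1 and 3.82 in KO library 2.

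The uncalled regions made up 28.5% of the acetylated hemogen-BRG1 regions. The same share was 44.7% over all WT BRG1 regions and 71.8% over the 4540 hemogen-BRG1 regions without an H3K27ac region. These shares follow from the choice of regions and are given as background. The count depended on the lists: without the KO group list 51.2% of the acetylated regions were uncalled, and with a minimum −log10 q of 5 in every list 45.5%. With group lists in place of regions found in both libraries, and only the KO group list for KO calls, the share was 64.5%. With the BRG1 library lists trimmed to the length of the shortest KO library list, and no KO group list, 1532 acetylated regions remained. Of these 25.2% were uncalled, against 51.2% untrimmed without the group list, and 75 of the 2346 regions overlapped them. The 5877 called regions fell into 1865 listed in the KO group list only, 2506 in 1 KO library and 1506 in both KO libraries. Uncalled regions lay on every chromosome, from 24.6% of the acetylated regions on chromosome 5 (136 of 553) to 34.6% on chromosome 16 and 37.0% on X (20 of 54).

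BRG1 in the WT livers was lower at uncalled regions than at called ones. The median fold of the strongest BRG1 peak over background was 4.24 in library 1 and 4.25 in library 2 at uncalled regions. At regions listed in both KO libraries it was 5.81 and 5.49. The quartiles of the uncalled regions ran from 3.55 to 5.03 in library 1 and from 3.65 to 4.96 in library 2, and the highest reached 9.06 and 8.89, so the groups overlapped widely. On a rank scale, the mean percentile of −log10 p in both library lists (strength in what follows) had a median of 54.5 at uncalled regions, 78.2 at called regions and 90.3 at regions in both KO libraries. The uncalled share fell with each decile of WT BRG1 strength, from 64.1% in the weakest (325 regions) through 37.2% in the fifth to 3.96% in the strongest (48 regions). Uncalled regions were also narrow, with a median width of 670 bp against 1191 bp for called regions. A single BRG1 peak in each library made up 76.1% of them, against 40.2% of the regions in both KO libraries.

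**Figure D1:**
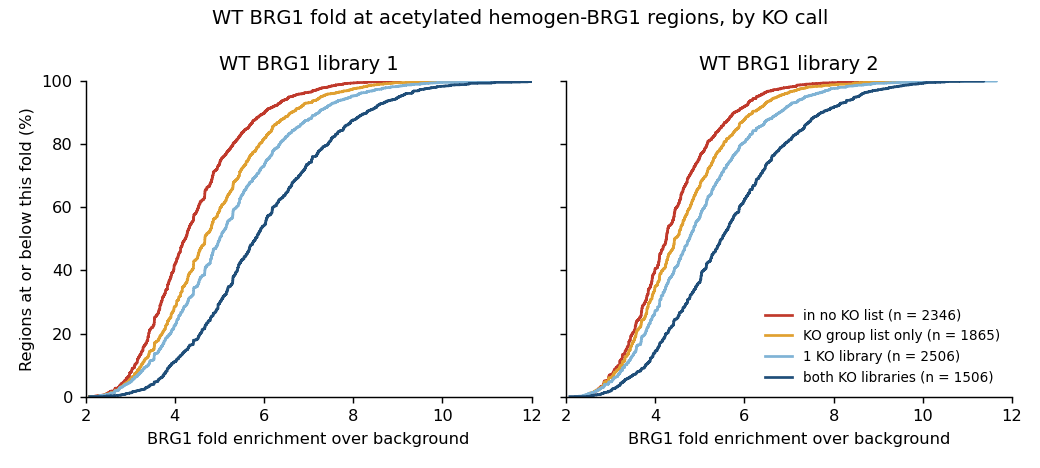
Cumulative share of acetylated hemogen-BRG1 regions (y axis, %) by WT BRG1 fold over background (x axis, strongest peak of each region) in each WT library, for the 4 kinds of KO call. The curve of regions in no KO list lies farthest left in both libraries, with medians of 4.24 and 4.25, and overlaps the other curves over most of its range.

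In reads, the median summit of an uncalled region held 27 reads in each WT library, over a background of 4.68 and 3.96 on the scaled depth. Regions in both KO libraries held 42 reads at the summit in each WT library, and 33 and 30 in KO libraries 1 and 2. The read numbers given here are not adjusted for depth, so WT and KO numbers cannot be compared directly. The estimated precipitated reads of KO libraries 1 and 2 were 0.406 and 0.342 of those of WT library 1. Regions found in the KO group list only lay between, with 31 reads in each WT library. No peak in the KO library lists had fewer than 10 reads at its summit, and 90% had 21 or more in KO library 1 and 17 or more in KO library 2.

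The KO list entries closest to the rule's boundary were weak peaks of the group list. Of the called regions, 1631 touched a single KO peak, and for 1507 of them that peak was in the group list alone, with a median −log10 q of 3.35. The called regions with the lowest value were chr12:76675929-76676724 at 1.31, chr10:40140746-40142339 at 1.35 and chr10:40347718-40349159 at 1.35. Their WT BRG1 folds were 3.84 and 4.49, 4.69 and 6.03, and 5.51 and 6.89 in libraries 1 and 2. On the other side, chr1:194976437-194977068 missed a KO group peak by 1 bp, with WT folds of 6.38 and 3.54. The uncalled region chr6:88740902-88741578 missed one by 3 bp with folds of 4.82 and 3.69, and chr13:51748692-51748967 missed a peak of KO library 2 by 4 bp with folds of 3.37 and 4.43. In library 1 the folds on both sides of the boundary overlapped, and in library 2 those of the 3 called regions were the higher ones.

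Each KO library was then read at regions chosen with the other one only. Over all WT BRG1 regions, 18.4% were in the list of KO library 1, 28.9% in that of KO library 2 and 53.6% in the group list. Of the 6030 acetylated hemogen-BRG1 regions absent from KO library 1, 1819 (30.2%) were listed in KO library 2, against 1506 of the 2193 present in it (68.7%). Of the 4898 absent from KO library 2, 687 (14.03%) were listed in KO library 1, against 45.3% of the 3325 present. Over all 8223 acetylated regions the shares were 40.4% in KO library 2 and 26.7% in KO library 1. Absence in 1 library therefore went with a lower share in the other. This is a description, as both lists also chose the uncalled regions. Listing in both KO libraries rose with WT BRG1 strength, from 5 of 507 regions in the weakest decile to 664 of 1213 in the strongest. The part of WT BRG1 strength in the lower shares was not tested. Of the 4211 regions absent from both library lists, 1865 (44.3%) appeared in the KO group list. That list has an estimated 0.517 of the calling depth of WT library 1 and is not independent of the libraries if it pools them.

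To see what the KO lists could have held at an unchanged signal, the height and background of each WT peak were multiplied by the ratio of the lowest background in the KO list to that in the WT list, and the Poisson p was computed again. Taken from WT library 1, 223 uncalled regions (9.51%) passed the smallest −log10 p of KO library 1 (4.61), 524 (22.3%) that of KO library 2 (4.33) and 1366 (58.2%) that of the group list (3.98). From WT library 2 the shares were 10.2%, 20.3% and 65.0%. The same step put 64.5%, 80.3% and 95.2% of the regions in both KO libraries past the thresholds from WT library 1. By this step most uncalled regions fell short of the KO library thresholds at the WT signal, and most passed that of the group list. The step was not neutral: at regions in both KO libraries it gave heights of 8.81 and 9.89, where the KO peaks had 18.5 and 20.3, and backgrounds of 1.27 and 1.43, where they had 3.27 and 3.82. With the background raised to the median of the KO list's own peaks, 0.341% of the uncalled regions passed in KO library 2 and 6.44% in the group list, from WT library 1. The height stayed at its rescaled value there, and the same setting passed only 17.9% and 69.9% of the regions that were listed in both KO libraries. It left out most of those that KO library 2 did list, so its shares say little about the uncalled regions. Lower BRG1 in the KO livers and the lower depth of the KO lists cannot be told apart from the lists alone.

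**Figure D2:**
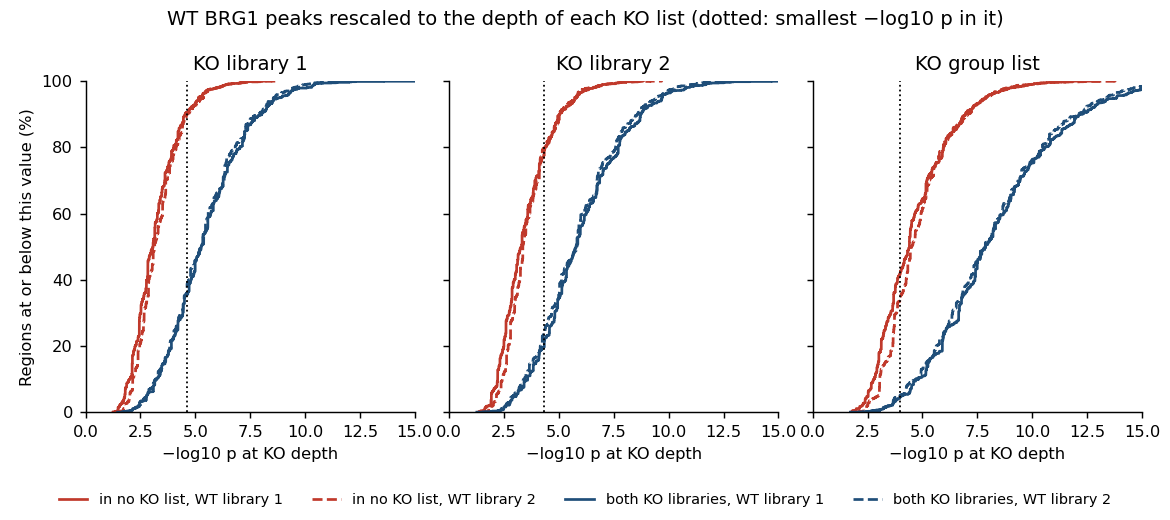
Cumulative share of regions (y axis, %) by the −log10 p of their WT BRG1 peak after rescaling by the lowest-background ratio of each KO list (x axis), for regions in no KO list and in both KO libraries, from WT library 1 (solid) and 2 (dashed). The dotted line is the smallest −log10 p in that KO list (4.61, 4.33 and 3.98): most red curves lie left of it for the libraries and right of it for the group list.

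All 6 pairings of a WT library with a KO list put 64 uncalled regions (2.73%) past the threshold, against 1385 called regions (23.6%) and 738 of those in both KO libraries (49.0%). No pairing did so for 472 uncalled regions (20.1%). The 64 regions had WT BRG1 folds with medians of 6.92 and 6.11, close to the 6.64 and 6.24 of the 1385 called ones. In BRG1 strength the 64 were lower, with a median of 92.6 against 95.1, so the sets were not matched. Their hemogen folds were higher, with medians of 8.03 and 7.27 against 6.85 and 6.14. Their H3K27ac folds were lower, with medians of 4.78 and 4.61 against 5.17 and 5.15. Their H3K27ac regions spanned 619 bp against 1020 bp, and their BRG1 regions 1301 bp against 1853 bp. A KO peak was often close to the 64 regions as well, with a median distance of 2844 bp and a first quartile of 437 bp.

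Hemogen was strong at the uncalled regions. The strongest HA peak of the overlapping hemogen region had a median fold of 5.75 in library 1 and 5.28 in library 2, and a median strength of 84.9 among all HA peaks. Called regions had 5.90 and 5.39 with a strength of 87.2, and regions in both KO libraries 6.33 and 5.71 with 91.1. Uncalled minus both was −5.07 and −5.66 percentile points in HA libraries 1 and 2. Within deciles of WT BRG1 strength the order turned. The median hemogen strength was above that of the called regions in all 10 deciles, by 0.087 to 4.84 percentile points and by 2.99 on average, and by 2.29 and 3.36 on average in HA libraries 1 and 2 alone. In fold, the mean excess was 0.51 in library 1 (above in 9 of 10 deciles) and 0.53 in library 2 (10 of 10). In the top decile the 48 uncalled regions had hemogen folds of 8.60 and 7.79, and the 1165 called regions 6.88 and 6.25. BRG1 strength itself differed there by −2.15 percentile points, uncalled minus called. Against the regions in both KO libraries alone, the mean difference was 2.94, with 8 of 10 deciles above, and the lowest decile held only 5 of those regions. No test was run on this, as regions are not replicates and each group had 2 libraries.

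H3K27ac was weaker at the uncalled regions in rank. Its median strength was 72.0, with folds of 4.37 and 4.41, against 83.5 at called regions and 91.0 at regions in both KO libraries, where the folds were 5.15 and 5.02. Uncalled minus both was −13.8 and −19.1 points in H3K27ac libraries 1 and 2. The H3K27ac region under an uncalled BRG1 region had a median width of 628.5 bp, against 821 bp under called regions and 1037.5 bp under those in both KO libraries. Within deciles of BRG1 strength, the H3K27ac strength stayed below that of the called regions in all 10 deciles, with differences of −16.3 to −0.845 points and −6.42 on average. The size of this depended on the scale. In fold the mean difference was −0.14 in library 1 (below in 7 of 10 deciles) and −0.10 in library 2 (below in 5 of 10), and it was below zero in both libraries in the 5 strongest deciles, with −0.57 and −0.21 in the ninth. In the top decile the folds were 4.83 and 4.36 at uncalled regions and 5.22 and 5.23 at called ones, with H3K27ac region widths of 656.5 bp and 1038 bp. Uncalled BRG1 regions were narrower than called ones in all 10 deciles, with median differences of −499.5 to −71 bp. More than 1 H3K27ac region was touched by 7.59% of uncalled and 19.6% of called regions. The strongest peak and the widest region touched give the H3K27ac values, so touching more regions offers more to choose from. The part of BRG1 width in the H3K27ac differences was not tested.

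The 3 signals were only loosely related among the uncalled regions. Across the 2346 regions, Spearman's rho was 0.31 between BRG1 and hemogen strength, 0.09 between BRG1 and H3K27ac and 0.11 between hemogen and H3K27ac. Among the 5877 called regions the values were 0.45, 0.37 and 0.31. Between libraries of 1 antibody, rho at uncalled regions was 0.72 for hemogen, 0.35 for BRG1 and 0.32 for H3K27ac, so the low values involving BRG1 and H3K27ac have an uneven measure on at least 1 side. At called regions it was 0.62, 0.54 and 0.41 in the same order, so BRG1 and H3K27ac were the more even there. The part of this in the lower values at uncalled regions was not tested. These are descriptions across regions, which share libraries and inputs. Hemogen outranked H3K27ac at 1603 uncalled regions (68.3%), at 59.2% of called regions and at 54.2% of the regions in both KO libraries. Over all acetylated regions the share was 61.8%. Each rank is within the lists of its own antibody, which differ in length, so this compares ranks and not amounts.

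The BRG1 summit lay inside the H3K27ac region at 75.02% of the uncalled regions in each WT library. At regions in both KO libraries it did so at 92.0% and 89.1%, and at called regions at 84.6% and 83.7%. When outside, it mostly had H3K27ac within 1 kb on 1 side, at 17.7% and 17.0% of all uncalled regions, and less often on both sides, at 6.99% and 7.72%. These shares move with the width of the H3K27ac regions given above, whose part in them was not tested. Nearly all BRG1 summits were inside the hemogen region, 95.4% and 95.3%. The strongest hemogen summit was 289 bp from the BRG1 summit in the median of library 1 and 286 bp in library 2, and within 100 bp at 25.8% and 27.2%, about as at called regions (26.0% and 26.5%). The BRG1 summits of both libraries were 113 bp apart in the median, against 152 bp at regions in both KO libraries.

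Uncalled regions lay among other acetylated regions. The nearest other acetylated hemogen-BRG1 region was 3584 bp away in the median, against 13255 bp for called regions, and within 5 kb for 52.3% against 39.9%. That neighbour was itself uncalled in 31.0% of cases, against 29.2% for called regions and 28.5% over all acetylated regions, values within a few percentage points of each other. When H3K27ac regions closer than 10 kb were joined into domains, the domain of an uncalled region had a median width of 8486 bp, against 3435 bp for called regions. A called region lay in the same domain for 1263 of them (53.8%). The 2346 uncalled regions sat in 1828 domains, of which 966 held no called region, and 347 held more than 1 uncalled region.

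KO peaks were often close by. A peak of any KO list lay within 500 bp of 576 uncalled regions (24.6%), within 1 kb of 840 (35.8%) and within 5 kb of 1213 (51.7%), with a median distance of 4174 bp. Farther from KO peaks, 580 regions (24.7%) shared a domain with a called region, 194 (8.27%) shared one with other uncalled regions only, and 732 (31.2%) were the only acetylated hemogen-BRG1 region of their domain. The last set stood apart in its marks: its median hemogen strength was 78.8 and its H3K27ac strength 67.5, against 87.1 and 74.4 for the regions within 1 kb of a KO peak. BRG1 strength ran the other way, 56.7 against 51.2.

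**Figure D3:**
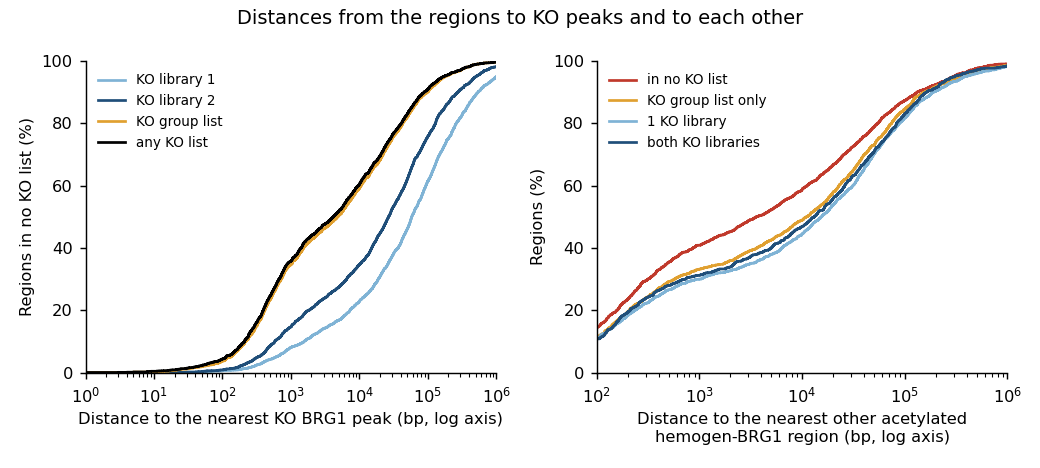
Left, cumulative share of the 2346 regions in no KO list (y axis, %) by distance to the nearest KO BRG1 peak (x axis, bp, log scale) of each KO list and of any list. Right, cumulative share of regions of each KO call by distance to the nearest other acetylated hemogen-BRG1 region (x axis, bp, log scale); the red curve reaches 50% at 3584 bp, before the others.

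The 8 uncalled regions with the strongest WT BRG1 show what the data look like at single places, and all 8 are among the 64 that every pairing put past the KO thresholds. At chr3:95216700-95218236 the BRG1 fold was 6.51 and 8.44 in libraries 1 and 2, with 58 and 53 reads at the summit. Hemogen had 7.56 and 10.7 there, within 64 bp of the BRG1 summit in each library, and H3K27ac 4.15 and 4.11. The nearest KO peak of any list was 9804 bp away. At chr11:95800067-95801181 BRG1 was 6.43 and 8.79, hemogen 7.43 and 9.38, and H3K27ac 3.89 and 5.51, with a KO peak at 3167 bp and 4 called regions in the same domain. Both regions are above the third quartile of uncalled regions for BRG1 and hemogen, while their H3K27ac folds fell on both sides of the medians.

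At chr15:27495829-27498271, 2443 bp wide, BRG1 was 5.30 and 8.29 and hemogen 8.55 and 8.78, but a KO group peak lay only 293 bp off. At chr18:56976674-56978759 hemogen reached 10.2 and 12.4 with BRG1 at 7.40 and 7.54, while H3K27ac was 2.76 and 4.15, a strength of 25.6 and the lowest of the 8. At chr4:134922527-134923447 hemogen was the lowest of the 8, 5.04 and 5.35, with BRG1 at 6.69 and 6.13 and KO peaks 209 bp (group list) and 237 bp (library 2) away. These 3 regions show how unlike the marks and the KO surroundings could be at like BRG1.

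At chr8:109865223-109866030 BRG1 was 7.46 and 7.36, hemogen 9.64 and 7.82, and H3K27ac 4.21 and 5.66, with the nearest KO peak at 2832 bp. At chr18:34518738-34520166 the BRG1 and hemogen summits were 14 bp and 1 bp apart, with BRG1 at 6.74 and 7.52, hemogen at 9.84 and 8.91 and 3 further uncalled regions in the same domain. At chr12:32142381-32144177 all 3 signals were high, with BRG1 at 7.86 and 6.49, hemogen at 9.08 and 11.1 and H3K27ac at 6.52 and 5.13, and its domain of 40248 bp held 4 uncalled regions and no called one. A KO group peak was nevertheless 449 bp from it. In 7 of the 8, the hemogen fold was above the uncalled median in each library.

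**Figure D4:**
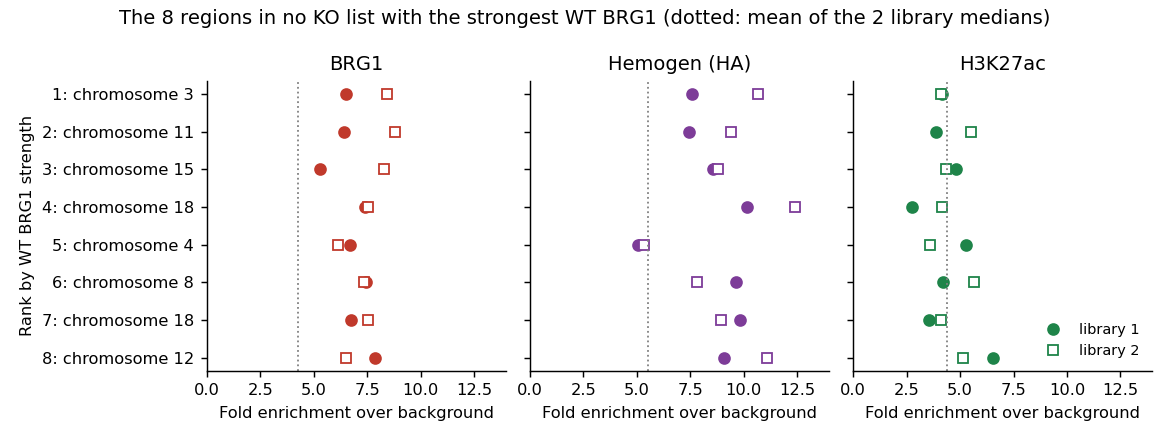
Fold over background (x axis) of BRG1, hemogen (HA) and H3K27ac in library 1 (filled circles) and library 2 (open squares) at the 8 regions in no KO list with the strongest WT BRG1, ordered by strength (y axis, with their chromosome). BRG1 and, except at the region on chromosome 4, hemogen lie right of the dotted line (mean of both library medians over all 2346 regions), while H3K27ac scatters around it.

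Regions where BRG1, hemogen and H3K27ac were all high were led by chr6:83012940-83015626, with folds of 7.04 and 6.19, 10.99 and 10.1, and 5.94 and 6.30 in that order of signals. It was followed by the chromosome 12 region above, by chr4:119050641-119051702 and by chr11:31829928-31832597. The BRG1 fold of the last differed most between libraries, 8.30 and 4.73. The first had a KO group peak at 270 bp, while the others on chromosomes 4 and 11 were 6266 bp and 6056 bp from any KO peak.

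The strongest hemogen did not sit on the strongest BRG1. At chr1:167382215-167383876 the HA folds were 13.2 and 12.2 with BRG1 at 6.44 and 3.54. At chr2:73092483-73093449 they were 13.4 and 12.1 with BRG1 at 6.04 and 4.72, and this region was 89022 bp from any KO peak and alone in its domain. At chr8:123988018-123988501 HA folds of 13.0 and 11.9 went with BRG1 at 4.14 and 3.77, and at chr2:103897903-103898320 the HA summit, 12.9 and 10.3, lay 4177 bp and 4043 bp from the BRG1 summit. The last value shows that a hemogen region can reach well past the BRG1 region it touches. HA and BRG1 summits were 829 bp and 1016 bp apart at the chromosome 1 region. They were 507 bp and 633 bp apart at the chromosome 8 region, which is only 484 bp wide, and 75 bp and 26 bp at chr2:73092483-73093449.

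The widest H3K27ac regions with an uncalled region held BRG1 of very different strength. One of 7034 bp held 2 of them, chr7:25268384-25269569 with BRG1 folds of 6.39 and 5.91 and chr7:25273683-25274420 with 3.52 and 3.45. One of 6671 bp held chr10:80071342-80071634 (3.41 and 4.10), and one of 6197 bp chr2:93451759-93452340 (3.22 and 3.20). In 3 of these 4, a KO peak lay within 447 bp.

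The 3 domains with most uncalled regions held 9, 7 and 6 of them, a small part of the 2346. The first spanned 178 kb at chr3:153658092-153835815, with 81 H3K27ac regions, 9 uncalled and 4 called acetylated hemogen-BRG1 regions. Its uncalled regions ranged in BRG1 strength from 12.2 to 83.1, with a median hemogen strength of 91.9. The next was chr4:46394985-46453641, with 7 uncalled and 4 called regions, a median hemogen strength of 97.3 and an H3K27ac strength of 89.5. In chr10:43575880-43706590 there were 6 uncalled and 4 called regions. In these 3 domains the median BRG1 strength of the uncalled regions, 39.2, 44.3 and 35.0, was below that of uncalled regions at large.

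Among the 64 regions past every threshold, 3 were chosen after their values were seen, because they lay farthest from any KO peak. The nearest KO peak was 662179 bp from chr18:14681781-14682788, 170143 bp from chr11:83473213-83474042 and 159921 bp from chr16:11582905-11585208. Their BRG1 folds were 5.89 and 6.73, 8.02 and 5.34, and 6.72 and 7.62, over 39 and 42, 42 and 33, and 37 and 40 reads. Hemogen was 6.20 and 4.53, 7.04 and 5.31, and 9.21 and 8.93. H3K27ac was 5.94 and 4.36 and 6.85 and 5.97 at the first and second, but 2.81 and 3.97 at the third.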

How the data were processed

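The data were ChIP-seq peak lists in narrowPeak layout, 1 per library and 1 per group, for 4 groups of E14.5 mouse fetal liver. Per the submitters' processing notes the tools were MACS2 2.2.7.1, Picard 2.21.4, SAMtools 1.9 and Bowtie2 2.3.5, whose roles the notes do not say. No source used here gives the genome build, the input behind each list or how group lists combine libraries. The fold over background (ratio), the −log10 p and the −log10 q of each peak are the authors' own deposited values and were used only to describe and rank peaks within a list. In the names of the hemogen peaks the libraries titled 1 and 2 carry other numbers, and each list was assigned by its recorded sample. Per the labels' protocols, both ChIP and tagmentation (ChIPmentation) libraries were made, without saying which sample had which.

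Peaks on 19 autosomes and the X chromosome were used. Overlaps needed 1 bp. Strength was the percentile of −log10 p in a list, averaged over both libraries. A hemogen or H3K27ac value is that of the strongest peak in the overlapping region. Summit reads and background were solved from fold, taken as (height + 1)/(background + 1), and an upper Poisson tail for p. Recovery of the value per list and of the summit reads was checked on data simulated with the same formulas. That check cannot show that the deposited values follow these formulas. For relative depth, the lowest background that 5 or more peaks had in common was divided by the length of the shortest peak in that list. The regions and measures were chosen with earlier results of these data known. Named regions are the 8 strongest in BRG1, the 4 with the highest lowest-of-three strength, the 4 strongest in hemogen, the 4 with the widest H3K27ac region, 3 on each side of the rule's boundary and the 3 domains with most uncalled regions. Gene names, promoters, motifs and sequences were not used here, as no mouse reference was. No test was run. The software was Matplotlib 3.10.9, SciPy 1.17.1, pandas 2.3.3, NumPy 2.4.6 and Python 3.11.15.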

Additional observations from a re-analysis of the deposited data

How the results depend on the processing

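The uncalled set depended strongly on the lists used. It held 2346 regions as reported, 1498 with a minimum −log10 q of 5 in every list and 4211 without the KO group list. With the group lists in place of regions found in both libraries, and only the KO group list for KO calls, it held 16025. With the BRG1 library lists trimmed to the length of the shortest KO library list, and no KO group list, it held 386. It held 1506 without the members within 1 kb of a KO peak, a choice made after seeing the data. Only 75 of the 2346 regions overlapped an uncalled region after trimming, and 438 at the higher −log10 q. These settings left 1532 and 3289 acetylated regions, against 8223 as reported. The uncalled share of acetylated regions was 26.0% with an overlap of 50% of the shorter interval, 45.5% at the higher −log10 q, 51.2% without the group list, 21.5% with KO peaks searched 500 bp beyond each region, 64.5% with group lists, 25.2% after trimming and 18.3% without members within 1 kb of a KO peak.

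The difference in median hemogen strength, uncalled minus both KO libraries, was −6.12. It was −4.33 at the higher −log10 q, −6.91 with the 500 bp margin, −8.66 with group lists, −7.94 without members within 1 kb of a KO peak, −4.67 with KO peaks searched 500 bp around the BRG1 summit, and −9.18 for the HA peak touching the BRG1 region. It reversed to 0.418 after trimming, to 2.94 within deciles of WT BRG1 strength (2.99 against all called regions), and to 2.06 within deciles for the touching peak (2.93 against all called regions). The H3K27ac difference was −19.0, and −5.58 at the higher −log10 q, −9.19 after trimming and −9.03 within deciles (−6.42 against all called regions). The BRG1 width difference was −1076 bp, and −1484 bp with group lists, −639.5 bp after trimming, −876.5 bp with the summit window and −405 bp within deciles. The share passing a KO library threshold after rescaling was 22.3% from WT library 1 and 20.3% from WT library 2. It was 58.2% and 65.0% for the group list, and with the background of KO peaks 0.341% in KO library 2 and 6.44% in the group list. That last setting left the height as rescaled and passed only 17.9% and 69.9% of the regions in both KO libraries. For these alternatives the cause was not tested.

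Leaving out each of the 8 libraries in turn, and with a KO library also the KO group list, which may hold its reads, gave 2328 to 6030 uncalled regions and a share of 28.4% to 73.3%, with the lowest without hemogen library 1 and the highest without KO library 2. Without KO library 1 and the group list there were 4898, where leaving out the group list alone gave 4211, and without WT BRG1 library 1 or 2 there were 4043 and 4405. The hemogen difference ran from −8.55 to −3.79, the H3K27ac difference from −23.1 to −10.9 and the width difference from −1075.5 bp to −566 bp, all in the reported direction. With a KO library left out, the comparison was with regions listed in the other KO library, a different contrast. There were 3325 such regions without KO library 1 and 2193 without KO library 2, against 1506 as reported. The values −3.79, −10.9 and −566 bp all came without KO library 1. No paired analysis was possible because no result comes from a test. The planned promoter, motif and gene list results were not run without a mouse reference.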
